A study of Mus musculus with 3 samples.

Results

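Lipocalin 2 (Lcn2) and 9 genes that move, store or sense iron were followed in melan-a NRAS61K cells, an immortalized mouse melanocyte line that carries the NRAS61K oncogene. Total RNA was measured on 1 Affymetrix array each after 6, 14 and 28 days with doxycycline, an antibiotic commonly used to switch on introduced genes, at 1 µg/ml. All groups shared the cell line, the agent and its dose, and no untreated array was analysed here. The labels also name 10 days of treatment, which was not analysed here. The labels do not say what doxycycline controls in this line, nor whether the line is 1 clone. By its title, the study dealt with how tumorigenic cells come from those that the oncogene made senescent.

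The members were the probe sets whose 1 gene symbol is Lcn2, Tfrc, Trf, Fth1, Ftl1, Slc11a2, Slc40a1, Steap3, Ireb2 or Aco1. They were chosen from a study of these same arrays in which the Lcn2 values had already stood out, so every value below is a description and none is a test. Of the 10 genes, 8 were measured, by 22 probe sets, among 18194 genes on the array. Trf, which codes for the iron carrier transferrin, and Ftl1, the ferritin light chain gene, had no probe set of their own. The annotation gives 1 probe set for Trf and 3 for Ftl1 together with other genes, so no value is given for either.

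Cells take up iron as transferrin bound to the transferrin receptor (Tfrc). In the endosome the metal is reduced by STEAP3 and passes into the cytosol through DMT1 (Slc11a2). Ferritin, built of the chains from Fth1 and Ftl1, stores it, and ferroportin (Slc40a1) exports it. The iron regulatory proteins from Aco1 and Ireb2 bind iron-responsive elements in several of these transcripts when iron is scarce. They then stabilize the Tfrc transcript and block translation of the ferritin and ferroportin transcripts, so for ferritin the level of protein can change without the level of RNA. Lipocalin 2 is a secreted protein that binds iron-loaded siderophores, and it is known as an acute phase protein and a granule protein of neutrophils.

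The stretch upstream of Lcn2 is shown because Lcn2 had the largest differences of the members, beside that of Cp, which had the largest difference between days 6 and 28 among genes of the wider iron and heme lists above the background on all arrays. Each run covers the 200 bases from position -250 to position -51 relative to the gene start in RefSeq on build GRCm38.p6, 5′ to 3′ on the strand of the gene. Capitals mark matches to TTGCNNAA, a form of the motif bound by C/EBP factors, searched on both strands. The AP-1 motif TGANTCA and the antioxidant response motif TGACNNNGC were searched too, and neither run shown held them. The Lcn2 run lies at chr2:32387790-32387989 on the minus strand, and the Cp run at chr3:19956999-19957198 on the plus strand. Cp has 2 such windows, and the one with a match to TTGCNNAA is shown. The other held no match to it but 1 to TGANTCA. The choice of motif and window was made with the matches known.
Lcn2: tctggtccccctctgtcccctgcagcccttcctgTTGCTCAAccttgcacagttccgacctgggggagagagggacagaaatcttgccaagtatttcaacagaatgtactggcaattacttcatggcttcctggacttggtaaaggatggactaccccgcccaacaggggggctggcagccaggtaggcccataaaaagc
Cp: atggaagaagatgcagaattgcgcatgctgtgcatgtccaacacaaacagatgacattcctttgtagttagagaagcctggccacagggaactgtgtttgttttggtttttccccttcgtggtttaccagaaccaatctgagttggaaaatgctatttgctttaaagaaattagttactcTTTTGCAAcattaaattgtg
Each run held 1 match to TTGCNNAA, which starts at position -216 for Lcn2 and, read on the opposite strand, at -70 for Cp. Of all 32851 such windows, 8.11% held at least 1 match, so these letters are a description and not evidence of binding. Windows were found for 7 of the 10 members, and none of the windows of Tfrc, Ftl1, Ireb2 or Aco1 held the motif, while 1 window of Fth1 and 1 of Steap3 did.

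The deposited values were log2 values as far as the values themselves show, spanning 1.46 to 30.6 around a median of 22.9. As background served the 90th percentile, per array, over 91 probe sets that detect 58 genes taken not to be expressed by pigment cells, which came to 23.24, 22.82 and 23.13 in order of time. Folds assume the base of 2. With 1 array per day there is no spread between cultures. Error was therefore taken from how far several probe sets for the same gene disagreed, with an SD of log2 differences of 0.29 from day 6 to day 14, 0.23 from day 14 to day 28 and 0.31 over the whole course. This SD was computed from probe sets above the background on both arrays, so it does not describe dim values. It covers the disagreement between probe sets and not the culture. An error shared by all probe sets of a gene does not enter it. The 3 comparisons share arrays pairwise, so an error of 1 array enters 2 of them. Unless said otherwise a gene is given by its brightest probe set over the 3 arrays, and a gene was compared if either array of the pair read above the background.

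By their brightest probe sets, Lcn2 was the only member at least 2-fold apart in any comparison, and it was higher each time. For day 14 against day 6, 1 of 8 members was higher by 2-fold or more, where 5.58% of 11189 genes were, and 0 were lower, where 3.79% were. For day 28 against day 14 the counts were 1 higher and 0 lower of 8, with 2.07% and 1.42% of 11235 genes. For day 28 against day 6 they were 1 higher and 0 lower of 7, with 6.59% and 4.02% of 10927 genes. Since the Lcn2 values helped to choose the members, nothing is read from these counts.

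At a limit of 1.5-fold, Slc40a1 and Tfrc joined Lcn2. In the first step, from day 6 to day 14, 2 of 8 members were higher (13.7% of all genes) and 0 lower (14.0%). In the second step, from day 14 to day 28, 1 was higher (7.27%) and 1 lower (4.33%). Over the course, from day 6 to day 28, 2 of 7 were higher (16.0%) and 1 lower (12.2%). The median log2 difference of the members was 0.14, -0.04 and 0.19 in these 3 comparisons, beside -0.02, 0.03 and 0.02 over all genes. The central 90% of genes ran from -0.93 to 1.06 in the first step, which held Slc40a1 (0.79), and from -0.55 to 0.69 in the second, which did not hold Tfrc (-0.80).

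**Figure D1:**
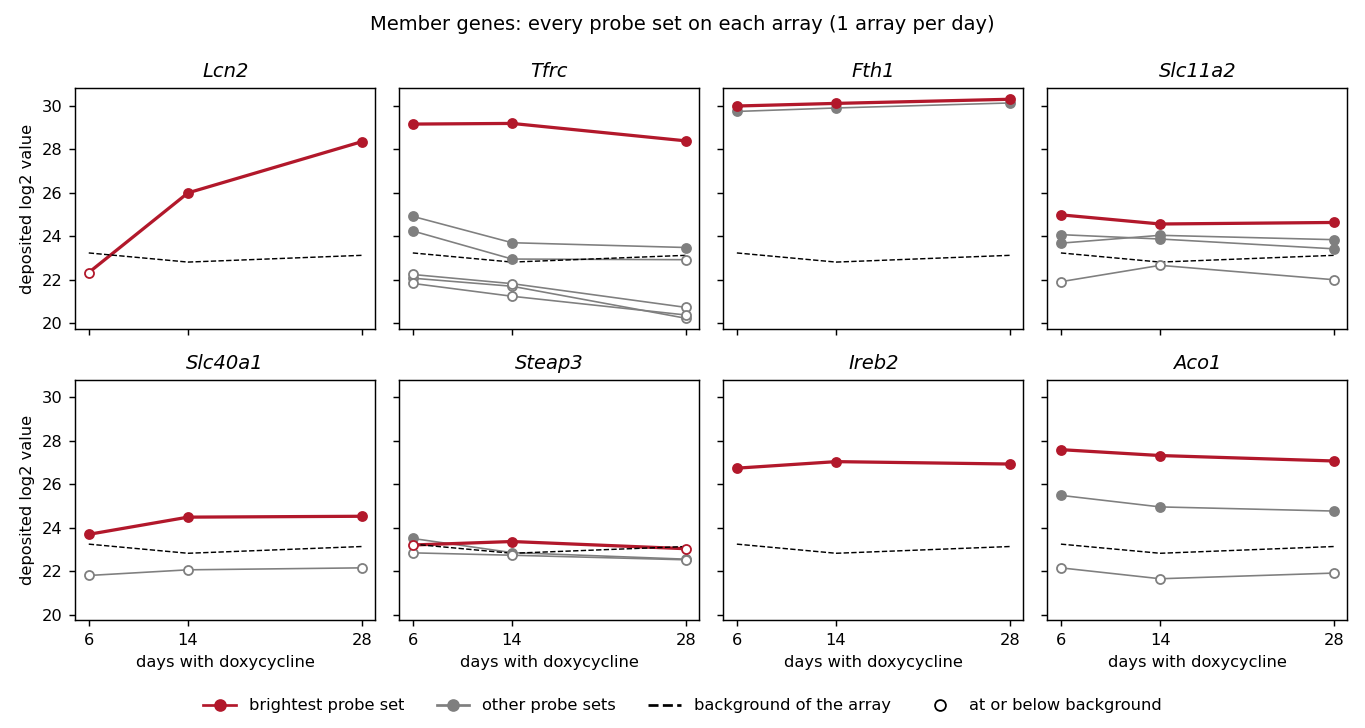
Deposited log2 values of all 22 probe sets of the 8 measured members at days 6, 14 and 28, with 1 point per array. The red line is the brightest probe set of a gene, gray lines are its other probe sets, the dashed line is the background, and open points lie at or below it. Lcn2 goes from 22.34 to 28.35, while the brightest Fth1 probe set stays between 29.99 and 30.30.

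Lcn2 was measured by 1 probe set, whose name marks it as shared by transcripts of the gene. It read 22.34, 26.00 and 28.35 in order of time. The value at day 6 lay below the background of 23.24, and those at days 14 and 28 lay far above it, so the order of the levels was day 6, day 14, day 28. Against the background of day 6, Lcn2 was at least 6.81-fold higher at day 14 and at least 34.6-fold higher at day 28. These bounds hang on the genes and the percentile that set the background. At the 75th percentile (22.28) the day 6 value lay just above it, and the measured folds were 12.7 and 64.6. Between days 14 and 28, both measured, it was 5.08-fold higher. As measured, the log2 differences were 3.67, 2.35 and 6.01, which ranked 16th of 11189 genes, 21st of 11235 and 4th of 10927 from the highest. The second step, 2.35, is many times the SD between probe sets, which says nothing of the spread between cultures. That SD does not apply to the differences from the dim day 6 value.

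The 5 genes closest to Lcn2 were taken by the distance over the differences of both steps, among 10673 genes above the background at day 28. The closest was Trpa1, which codes for a cation channel of sensory neurons, at a distance of 0.19 log2 units, with levels of 18.48, 22.11 and 24.64 in order of time. Gbp8, of the guanylate-binding protein family, followed at 0.43. Serpina3n, a serine protease inhibitor gene, was at 0.79, the complement protease gene C1s1 at 1.07 and the milk casein gene Csn3 at 1.13. Trpa1 and Gbp8 lay above the background at day 28 alone, so for them the first step compares dim values only, and their likeness to Lcn2 in that step cannot be judged. Their second step starts from a dim value at day 14, so that difference is not fully measured either. C1s1 lay above it at days 14 and 28, and Lcn2 itself was dim at day 6. Serpina3n went from 23.35 to 26.98 and 28.54, above the background throughout. With 3 arrays, likeness of this kind compares only a pair of differences per gene.

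**Figure D2:**
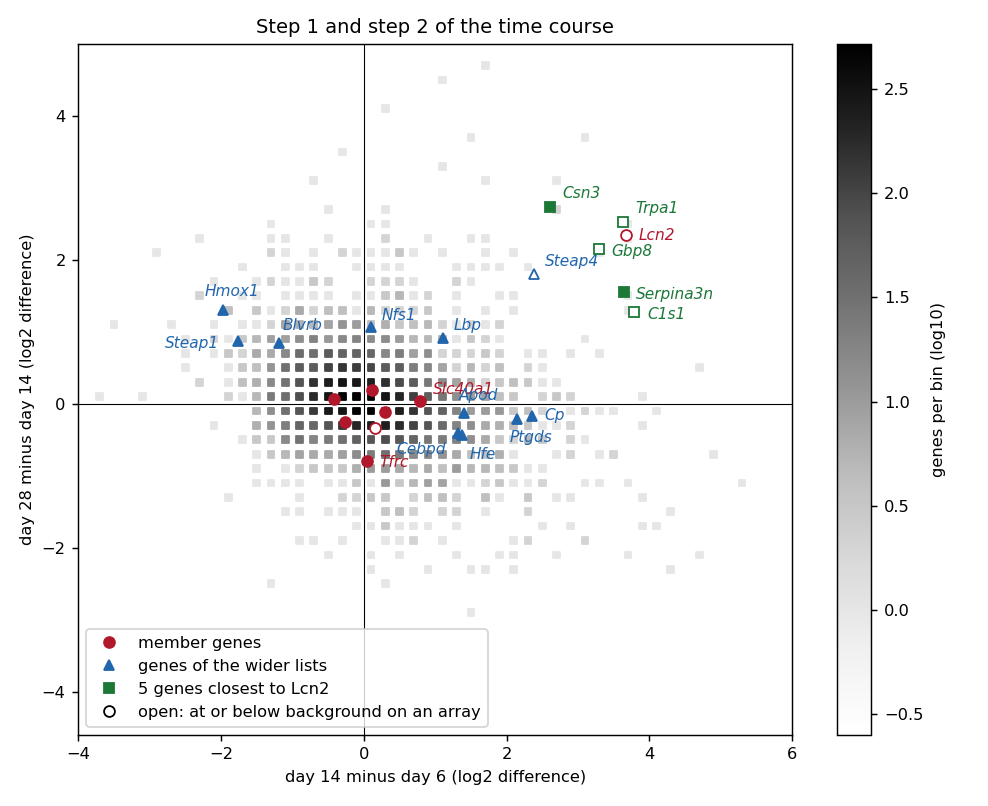
Log2 difference of day 14 minus day 6 (horizontal axis) against day 28 minus day 14 (vertical axis), with 11318 genes that any array read above the background in gray bins and named genes as symbols, open where an array lay at or below the background. Both axes use the day 14 array with opposite signs. Lcn2 sits at 3.67 and 2.35, beside Trpa1 and Gbp8, which lay above the background at day 28 alone. Cp sits at 2.35 and -0.17 and Hmox1 at -1.98 and 1.30.

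Lcn2 is also abundant in other cell types, so their markers are given beside it. Of all 18194 genes, 10330, 11060 and 10674 lay above the background at days 6, 14 and 28. The presence of a cell type is therefore not read from counts of markers above it. Of 7 neutrophil markers on the array, 1 lay above the background on each array. It was Ngp at days 6 and 14 (23.26 and 22.91) and S100a8 at day 28. S100a8, a calcium-binding protein gene of neutrophils that other cells can also express, had levels of 21.75, 22.33 and 24.49. At day 28 it was at least 2.39-fold above day 6. Mpo, Elane, Camp, Ltf and S100a9 lay at or below the background on all arrays. Of 8 macrophage and leukocyte markers, 4 lay above the background on each array. Lyz2, which codes for lysozyme, was 6.09-fold higher at day 14 and 6.70-fold at day 28 than at day 6. The other 3 read lower at day 14 than day 6, by -1.12 for Cd68, -0.26 for Adgre1 and -0.03 for Csf1r. Between days 14 and 28 Cd68, a lysosomal protein gene, was 4.03-fold higher, while Adgre1 differed by 0.14 and Csf1r by -0.28. The pan-leukocyte gene Ptprc lay below the background on all arrays, as did Itgam, Cd14 and Aif1. The part of such cells in the Lcn2 values was not tested. In a bulk sample more cells of a type and more RNA per cell cannot be told apart.

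Markers of the labelled cell type changed as well. Of 10 melanocyte markers, 6, 8 and 7 lay above the background in order of time, beside 10330, 11060 and 10674 of all 18194 genes. Tyr and Kit lay below it on all arrays, while Dct, for example, read 23.83, 29.17 and 28.03. Between days 6 and 14, 6 of 8 were at least 2-fold higher and 0 lower, where 5.58% and 3.79% of all genes were. Among the 6 were Mlana (4.83), Slc45a2 (3.73, from a day 6 value below the background), Mitf (2.43) and Gpr143 (1.73). Lcn2 was again higher between days 14 and 28. In that step 4 of 8 melanocyte markers were at least 2-fold lower and 0 higher, where 1.42% and 2.07% of all genes were. Tyrp1 was 4.62-fold, Gpr143 2.48-fold, Dct 2.20-fold and Slc45a2 2.09-fold lower. Cdh5, listed here as an endothelial marker, was 4.45-fold and then 4.21-fold higher by 1 of 2 probe sets, with the other below the background, while the other endothelial markers lay below the background on all arrays. Keratinocyte markers, 3 of 8 above the background on each array, differed by at most 0.16 for those 3. Of 3 fibroblast markers compared, Pdgfra at day 28 was 3.06-fold above day 6 in 1 of 3 probe sets, with the others below the background. Col3a1 was 2.08-fold higher and then 2.20-fold lower, with -0.08 over the course, and Col1a1 differed by -0.37 over the course. The 3 Nras probe sets read 26.92, 26.48 and 26.70, then 26.76, 25.98 and 26.29, and 25.94, 24.82 and 25.11. Each was highest at day 6 and lowest at day 14. The sources used here do not say if these probes can bind the transcript of the introduced oncogene.

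Of the genes listed here beside lipocalin 2, those for its receptors were not detected. Slc22a17 (22.11, 21.96 and 21.86) and Lrp2 (21.54, 21.89 and 21.89) lay below the background on all arrays, as did Mmp9, whose protease forms a complex with lipocalin 2. Bdh2, an enzyme gene linked to a mammalian siderophore, read 23.03, 23.55 and 24.22. Its day 28 level was at least 1.97-fold above day 6. Hpx, which codes for the heme carrier hemopexin, read 24.26, 24.25 and 24.29 and differed by less than the SD between probe sets.

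Of 16 other lipocalin genes on the array, 3 were compared, and the other 13 lay below the background on all arrays. Ptgds, the prostaglandin D synthase of brain and pigment cells, read 28.16, 30.30 and 30.09. It was 4.43-fold higher at day 14 than day 6 and differed by -0.21 between days 14 and 28, less than the SD between probe sets. Its other probe set gave 2.71 and -0.24. Apod, a lipid carrier gene, had the same shape with 29.18, 30.59 and 30.46, a 2.66-fold difference in the first step and -0.13 in the second. A dimmer probe set of Apod gave 2.75 in the first step where the main one gave 1.41, and both lay above the background throughout. The day 14 and day 28 values of Ptgds and Apod lie near the highest value on the arrays, 30.6. Whether these probes were near saturation was not tested. Apom differed by 0.61 and then by -0.58. So 2 of 3 lipocalins compared were 2-fold higher at day 14 (5.58% of all genes). In the second step 0 of 3 were 2-fold apart, where 2.07% of all genes were higher and 1.42% lower.

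Genes of the NF-κB pathway and of the acute phase, many of which are known from inflammation together with Lcn2, included 11 compared of 18 on the array. For day 14 against day 6, 2 of 11 were 2-fold higher and 0 lower, where 5.58% and 3.79% of all genes were. The median was 0.36 beside -0.02 for all genes. Cebpd, a C/EBP factor gene, read 26.90, 28.22 and 27.82 and was 2.49-fold higher at day 14. Its other probe set, dim at day 6, gave 0.82. Lbp, which codes for a protein that binds bacterial lipopolysaccharide, read 24.52, 25.63 and 26.55. It was 2.16-fold higher in the first step, 1.89-fold in the second and 4.09-fold over both. Its other probe set lay below the background. Socs3, a feedback inhibitor gene of cytokine signaling, was 1.89-fold higher at day 14 and its 3 probe sets gave 0.91 to 0.99. Saa1, Saa2, Saa3, Hp, Il6, Il1b and Tnf lay below the background on all arrays. Of the 11 genes compared, 9 were above 0 and 2 below in the first step, and again 9 and 2 over the course. The median over the course was 0.45, beside 0.02 for all genes. Those below were Cebpb (-0.20) and Il17ra (-0.26) in the first step, and Nfkb2 (-0.38) and Il17ra (-0.89) over the course. Rela differed by 0.06 over the course. With the background at the 75th percentile the medians were 0.13 in the first step and 0.29 over the course.

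On the uptake side, the 6 probe sets of Tfrc all read lower at day 28 than day 6, by log2 differences of -1.85 to -0.76. The brightest had levels of 29.16, 29.19 and 28.39, so its difference fell in the second step (0.04, then -0.80, or 1.74-fold lower). The next brightest read 24.92, 23.71 and 23.49, and its difference fell in the first step (-1.21, then -0.22). The array maker's 3′ control probe set for Tfrc read 24.25, 22.96 and 22.93, again with the difference in the first step (-1.29), and its day 28 value lay below the background. The other 3 lay below the background on all arrays. So day 28 lay below day 6 in each Tfrc probe set. For the brightest and the next brightest, above the background on all arrays, the difference was more than the SD of 0.31. That SD does not apply to the 3 below the background on all arrays, nor to the 3′ control, dim at day 28. The probe sets differ on when the difference arose. Those of day 14 against day 6 (0.04, -1.21 and -1.29) lie farther apart than the SD of 0.29 for that step.

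**Figure D3:**
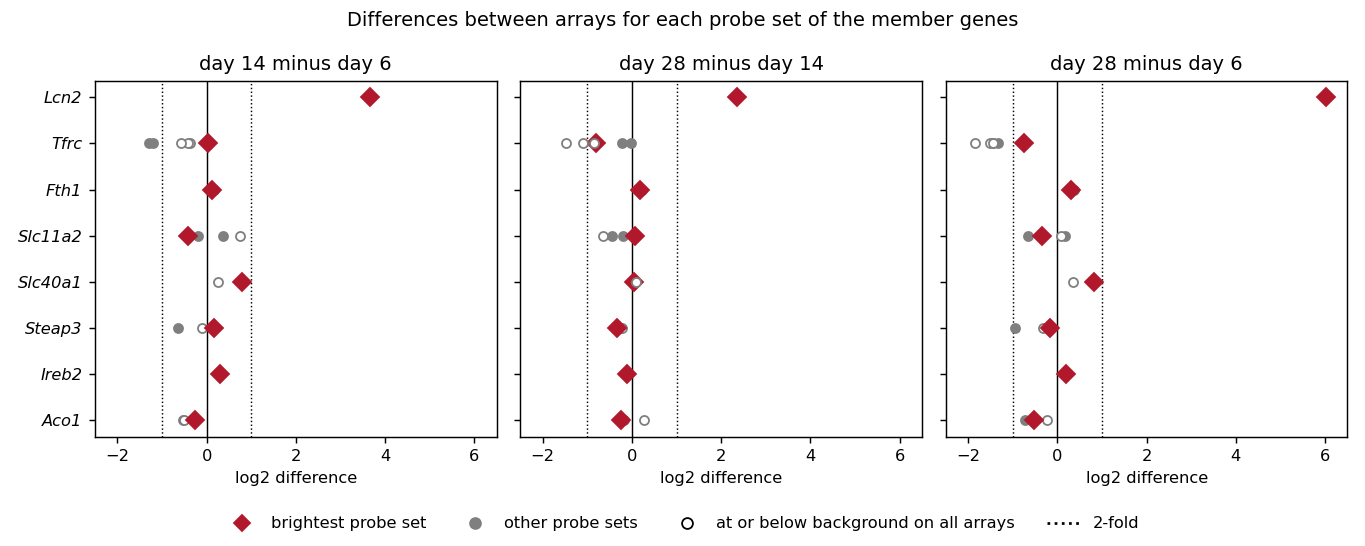
Log2 differences of the 22 member probe sets in the 3 comparisons, with the brightest probe set of a gene as a red diamond, the others as gray circles, open symbols for probe sets at or below the background on all arrays, and dotted lines at 2-fold. Tfrc lies left of 0 in all probe sets for day 28 minus day 6 (-1.85 to -0.76), and Lcn2 stands alone at 6.01.

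Steap3, the endosomal ferrireductase gene, was near the background. Its brightest probe set read 23.20, 23.36 and 23.03 and lay above the background at day 14 alone. Another read 23.50, 22.85 and 22.55, with a difference of -0.95 for day 28 against day 6, a lower bound of 1.30-fold once the background is set against it. No direction is given for this gene in the first step, since the probe sets gave 0.16, -0.65 and -0.11. Slc11a2, the gene of the endosomal iron transporter, read 24.99, 24.57 and 24.64. Its 3 probe sets above the background gave -0.42, -0.20 and 0.36 in the first step and -0.35, -0.65 and 0.16 over the course, so they differ in sign.

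The wider uptake list held 7 genes compared between days 14 and 28 and 6 between days 6 and 14. Steap1, a gene of the same family as Steap3, read 29.12, 27.35 and 28.22 and was 3.41-fold lower at day 14 and then 1.82-fold higher. Its other probe set gave -2.12 and 1.03. Steap2, its close relative, differed by -0.87 and 0.52. Steap4, another relative known from inflamed tissue and fat, read 19.46, 21.84 and 23.64 and lay above the background at day 28 alone, so it was at least 1.77-fold higher than at day 14 and at least 1.32-fold higher than at day 6, and its other probe set lay below the background. Exoc6, a gene of vesicle traffic that serves transferrin recycling, was 1.83-fold higher at day 28 than day 6 by its brightest probe set, while another of nearly the same level gave a log2 difference of 0.23. In all, 0 genes of this list were 2-fold higher and 1 lower in the first step (5.58% and 3.79% of all genes). In the second, 1 was higher and 0 lower (2.07% and 1.42%). That gene was Steap4, counted by its values as measured, and its bound of 1.77-fold does not reach 2-fold. The medians were -0.28 and 0.52, beside -0.02 and 0.03 for all genes, with all 7 above 0 in the second step. With the mean of all probe sets of a gene the median of the second step was 0.21, and over the course it was -0.43 in place of 0.09. Both steps use the day 14 array with opposite signs.

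For storage, Fth1 was bright on all arrays. Its probe sets read 29.99, 30.11 and 30.30, and 29.74, 29.90 and 30.13. Both gave day 6 as the lowest and day 28 as the highest, with differences over the course of 0.31 and 0.38. The single steps, 0.12 to 0.22, lay within the SD between probe sets, so neighbors in this order are not told apart. These values lie near the highest value on the arrays, 30.6, and whether the probes were near saturation was not tested. Of the wider storage list 4 genes were compared and 0 were 2-fold apart in any comparison. Among all genes, 1.42% to 6.59% were, by direction and comparison. Ncoa4, the receptor that delivers ferritin to the lysosome, read 26.80, 26.94 and 27.00, and the iron chaperone gene Pcbp1 differed by -0.05 over the course. Pcbp2 differed by -0.23 by its brightest probe set and by -0.95 and -0.62 by the others. Pcbp3 differed by 0.52 and, by its other probe set, 0.64.

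For export, Slc40a1 read 23.69, 24.48 and 24.52. Day 6 was the lowest, by 0.79 against day 14 and 0.83 against day 28, more than the SD between probe sets, and days 14 and 28 differed by 0.04. It lay little above the background, and its other probe set lay below the background on all arrays, with differences of 0.25 and 0.10. Cp, which codes for the copper ferroxidase ceruloplasmin that oxidizes exported iron, read 27.40, 29.75 and 29.58. It was 5.11-fold higher at day 14 than day 6, and its 8 probe sets gave log2 differences of 2.32 to 2.81 as measured. Those giving 2.46 and 2.56 started from day 6 values of 22.60 and 23.19, below the background. Between days 14 and 28 the 8 probe sets gave -1.28 to 0.51, so no direction is given for that step. Hfe, a gene of iron sensing, read 24.71, 26.09 and 25.65. By its brightest probe set it was higher at day 14 by a log2 difference of 1.38, or 2.60-fold. The other gave 1.58 as measured, from a day 6 value of 22.80 that lay below the background. Cp and Hfe were the only 2 of 9 genes of the export and hepcidin list above the background. Hamp, Hjv, Tmprss6 and Bmp6 of the hepcidin axis, and the ferroxidase genes Heph and Hephl1, lay below it on all arrays.

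The genes of the 2 iron regulatory proteins differed little. Aco1, whose protein is the cytosolic aconitase when it carries an iron-sulfur cluster, read 27.58, 27.31 and 27.06. Its 2 probe sets above the background gave -0.52 and -0.72 over the course, more than the SD of 0.31, while the steps of the brightest one, -0.27 and -0.25, were near it. Ireb2 read 26.73, 27.03 and 26.92 on 1 probe set. Day 14 lay above day 6 by 0.30, near the SD of 0.29 for that step. Day 28 differed from day 14 by -0.11, within the SD of 0.23. Fbxl5, the ligase subunit that marks IREB2 for breakdown when iron is plentiful, read 26.11, 26.30 and 26.95, and was 1.78-fold higher at day 28 than day 6. Fbxo38, another gene of its list, differed by 0.53 over the course. In that list, which also holds other transcripts with iron-responsive elements, 5 genes were compared and all 5 were above 0 over the course. The median was 0.53 beside 0.02 for all genes. Cdc42bpa differed by only 0.01 and Cdc14a by 0.32, near the SD of 0.31 between probe sets. None of the 5 was 2-fold apart over the course, where 6.59% of all genes were higher and 4.02% lower. Epas1, a hypoxia factor gene with such an element, was 2-fold higher at day 14 than day 6 and then differed by -0.45. Its other probe set, below the background on all arrays, gave -0.71 and 0.30.

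**Figure D4:**
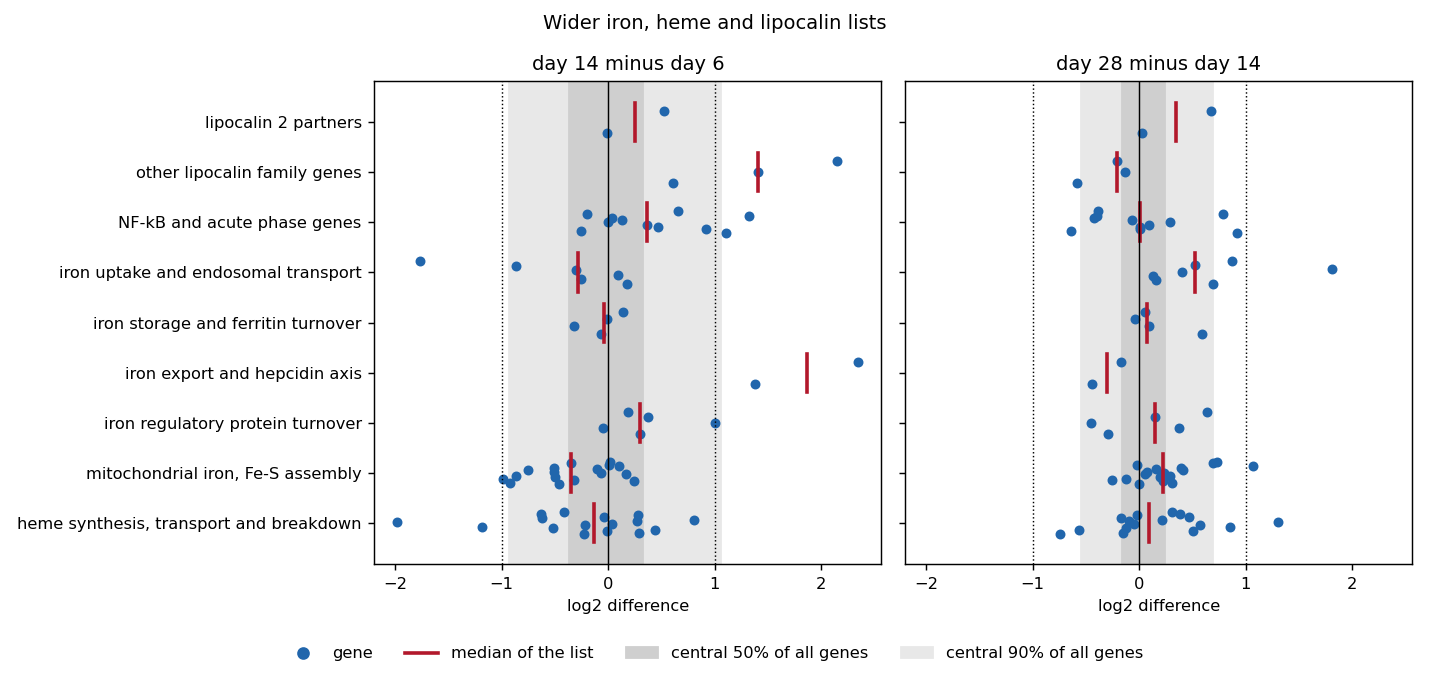
Log2 differences of the compared genes in 9 wider lists for day 14 minus day 6 and day 28 minus day 14, with the list median as a red bar and the central 50% and 90% of all compared genes as gray bands. The export pair Cp and Hfe lies at 2.35 and 1.38 in the first step, and the uptake list has medians of -0.28 and 0.52.

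Users of the metal were described by 2 more lists. For mitochondrial iron and iron-sulfur cluster assembly 17 genes were compared. In the first step 0 were 2-fold apart, where 5.58% of all genes were higher and 3.79% lower. In the second, 1 was higher and 0 lower (2.07% and 1.42%). The medians were -0.35 and 0.22. Nfs1, the cysteine desulfurase that supplies the sulfur, read 26.26, 26.36 and 27.42 and was 2.09-fold higher at day 28 than day 14. Its other probe sets gave 0.77 and 0.64 for that step. Nubp1, of the cytosolic assembly machinery, was 2.16-fold lower at day 28 than day 6, and its 3 probe sets gave -1.23 to -1.08. The mitochondrial iron importer gene Slc25a37 was 1.69-fold higher over the course.

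Of 16 heme genes, 2 were 2-fold lower at day 14 than day 6, Hmox1 and Blvrb, and 0 were higher. The shares of all genes were 3.79% and 5.58%. The median of the heme genes was -0.13. Hmox1, the heme oxygenase that frees the iron, read 24.99, 23.01 and 24.32, and was 3.94-fold lower and then 2.47-fold higher. Blvrb, a biliverdin reductase gene, read 25.29, 24.10 and 24.95, and was 2.28-fold lower and then higher by 0.85 on the log2 scale. Both were thus lowest at day 14, and each had 1 probe set. The Hmox1 value at day 14, 23.01, lay little above the background of 22.82, so both its folds rest on a value near the background. The related genes Hmox2 (0.04, then -0.05) and Blvra (-0.22, then 0.57) were not 2-fold apart in either step. Of the genes of heme synthesis, Ppox was 2.03-fold higher at day 28 than day 6 and Cpox 1.74-fold lower by their brightest probe sets, and Abcb6, a porphyrin transporter gene, was 1.95-fold lower. Over the 6 iron and heme lists together, 3 of 50 genes were 2-fold higher and 3 lower in the first step, beside 5.58% and 3.79% of all genes. The counts were 3 and 0 of 51 in the second step (2.07% and 1.42%), and 4 and 1 of 51 over the course (6.59% and 4.02%). With dim values raised to the background, the higher counts were 2 in the second step and 3 over the course, since Steap4 then dropped out. The medians were -0.07, 0.20 and 0.04, beside -0.02, 0.03 and 0.02 for all genes.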

How the data were processed

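Total RNA of 3 samples was hybridized to Affymetrix arrays, 1 per time point, per the labels. The table the authors deposited holds 45101 probe sets, with values read here as log2. The log base, the summarization and the added constant are not given in the sources used here, and the base of 2 is inferred from the values. Sorted, the deposited columns are identical, which is the mark of quantile normalization, and a difference common to most genes cannot be seen.

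Gene names came from the array's annotation, and current symbols from RefSeq through the Entrez identifier. A gene symbol of its own was given for 34958, several for 932 and none for 9211. Each gene was given by its brightest probe set, and differences, folds and counts at 2-fold were computed with Python 3.11.15, numpy 2.4.6 and pandas 2.3.3. No test between days was possible. Where 1 of the 2 arrays lay at or below the background, the fold is a lower bound against the background. The members, lists and rules were chosen with earlier results of these data known. Counts use values as measured. Named genes were all members, the 3 genes of each list with the largest difference between days 6 and 28, every list or marker gene 2-fold apart by its brightest probe set, the 5 genes closest to Lcn2, and Nras. Genes named beside them, such as undetected ones, were chosen after their values were seen. The steps were run on simulated data with noise below the SD between probe sets. The changed genes there lay far above the background and differed by more than 2-fold. So that run does not cover dim values or differences near the limit. Alternatives covered the probe sets, the background, dim values, the scaling and the size of a called difference. The number of arrays limits the precision.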

Additional observations from a re-analysis of the deposited data

How the results depend on the processing

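No paired analysis was possible because each day had 1 array. Over 6 settings, the reported one included, the direction of Lcn2 was higher in all 3 comparisons, with log2 differences of 2.77 to 3.67, 2.35 to 2.35 and 5.11 to 6.01. The lowest of these came from raising dim values to the background. Lcn2 has 1 probe set, so the settings that change the probe sets could not move it, and their agreement says nothing of stability. At the 75th percentile background of day 6 (22.28), Lcn2 (22.34) lay just above it. Tfrc was lower at day 28 than day 6 in every setting (-1.39 to -0.76), and with the mean of all probe sets it was past 2-fold, so 1 member was lower there. For day 14 against day 6 it ran from -0.64 to 0.04, Slc11a2 from -0.50 to 0.36 and Steap3 from -0.65 to 0.16. Of 115 member values, 104 moved by less than the SD between probe sets. Many of them could not have moved, so the count does not measure stability. The background percentile leaves each difference as it is, and equal hybridization controls shift all genes alike. Lcn2 and Ireb2 have 1 probe set each, so a change of probe sets cannot move them.

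At 1.5-fold, all genes called for day 14 against day 6 were 1536 higher and 1561 lower, for day 28 against day 14 817 and 487, and for day 28 against day 6 1743 and 1334. The member counts given in the report for 1.5-fold were 2 higher and 0 lower, then 1 and 1, then 2 and 1. Of 50 genes of the 6 iron and heme lists, 4 were higher and 10 lower in the first step (13.7% and 14.0% of all genes). Of 51, 10 were higher and 1 lower in the second (7.27% and 4.33%). Over the course 8 of 51 were higher and 7 lower (16.0% and 12.2%). The counts that follow are again at 2-fold. With the mean of all probe sets these lists had 1 higher in the second step, and 2 higher and 2 lower over the course. Without shared probe sets they had 2 lower over the course. With equal hybridization controls, whose means were 27.45, 27.53 and 27.53, they had 5 lower in the first step and 2 over the course. The cause of these shifts was not tested. The poly-A controls had means of 23.47, 23.69 and 23.91.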
